A study of Gallus gallus with 4 samples.

Results

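The genes examined here encode the 2-oxoglutarate dioxygenases, the enzyme class that dimethyloxalylglycine (DMOG) inhibits, and the question was where HIF1α-DNA binding complexes lay relative to them in primary lens cells. Peaks were chosen by the symbol of the gene with the nearest transcription start site (TSS). The rule used the names of the class and no measured value, although members were chosen with earlier results of these data known. It gave 38 of the 8375 listed peaks, assigned to 21 genes. Binding was measured by CUT&RUN, a method in which an antibody tethers a nuclease to a chromatin protein in permeabilized cells and the short DNA fragments that it frees are sequenced. Lens cells were taken from White Leghorn chick embryos at embryonic day 10, grown on laminin, and exposed to 1 mM DMOG for 4 h. The groups were 2 libraries made with the HIF1α antibody and 2 made with a control immunoglobulin (IgG), from 2 pools of 500000 cells that were each shared between both antibodies. Cells of all 4 libraries had received DMOG, and the comparison is therefore between antibodies, with no untreated cells in it. The libraries of each antibody were pooled before peaks were called, so a peak has 1 value with no replicate error, and intervals cover counting error alone. A peak list holds no expression values, so the lens identity of the cells was not checked against marker genes.

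These enzymes use oxygen, iron and 2-oxoglutarate to hydroxylate or demethylate proteins, nucleic acids and small molecules. The EGLN prolyl hydroxylases mark HIF1α for destruction when oxygen is present, and HIF1AN blocks its coactivator contact. DMOG enters cells and competes with 2-oxoglutarate, which keeps HIF1α stable without low oxygen and can act on other enzymes of the class. Genes of the class widely known to be induced by hypoxia in mammals include EGLN1, EGLN3, KDM3A, KDM4B, KDM4C, P4HA1, P4HA2, PLOD1 and PLOD2. The lens itself lacks a blood supply and lives at low oxygen, and its capsule is a thick collagen-rich basement membrane made by the lens cells.

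Peaks of the class lay in promoters of EGLN3, KDM2A, KDM3A, KDM4B, KDM5B, JARID2, TET2, P3H3, P4HA2 and BBOX1. The gene table of the chicken held 53 genes of the class, and 10 of them had a promoter peak, here one no farther than 3 kb from a TSS (18.9%, Wilson 95% confidence interval 10.6 to 31.4). Genes were matched by symbol alone. Some members known in mammals, among them EGLN2, PHF8 and PLOD3, are not counted in the 53 and were not analysed here, and a gene listed under another name would count as having no peak. Over all 14357 protein-coding genes with a symbol the share was 5.33%. There too a gene under another name counted as having no peak, so shares over all genes can be too low. How many genes this touched was not analysed here. A further 11 genes (20.8%, 95% confidence interval 12.0 to 33.5) had peaks beyond 3 kb only. With the 10 promoter genes, 21 of 53 (39.6%, 95% confidence interval 27.6 to 53.1) had a peak at any distance, beside 24.9% of all genes. Of all 14357 genes, 3576 had a peak at any distance. Of these 3576, 765 had one within 3 kb and the rest had peaks beyond 3 kb only. Only 4 genes, PLOD2, FTO, EGLN3 and KDM4B, had 3 or more peaks (7.55%, beside 3.80% of all genes). No test was made of these differences. Leaving out peaks with a high IgG background, over 3 times its lowest value, reduced the promoter genes to 6 of 53 (11.3%), beside 5.17% of all genes. At a −log10 q of at least 3 they were 5 of 53 (9.43%), namely EGLN3, KDM2A, KDM4B, TET2 and P3H3, beside 1.54% of all genes.

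Promoter peaks were spread over 6 subfamilies. Among the KDM histone demethylases, 4 of 13 genes had one and 4 more had peaks farther away. The procollagen hydroxylases had 2 of 9 genes with a promoter peak, and the hydroxylases that act on HIF had 1 of 4. TET enzymes (1 of 3), other JmjC proteins (1 of 9) and small-molecule hydroxylases (1 of 4) each had a single such gene. The ALKBH and FTO group (7 genes), OGFOD (3 genes) and ASPH had none, and OGFOD had no peak at any distance. Over all genes, 5.33% had a promoter peak and 24.9% a peak at any distance. The counts per subfamily are small, and the subfamilies were neither ranked nor tested against these shares.

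**Figure D1:**
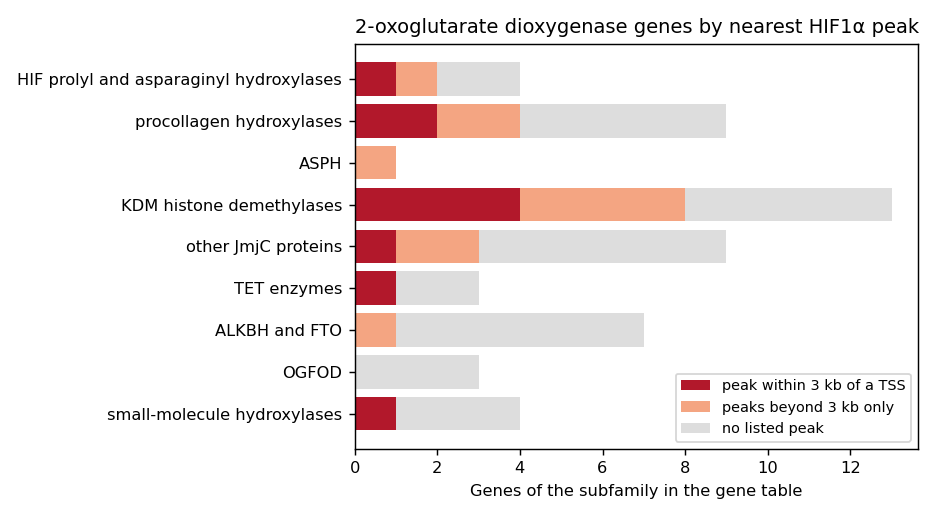
Number of genes per subfamily (x axis) with a HIF1α peak within 3 kb of a TSS (dark red), with peaks beyond 3 kb only (light red) and with no listed peak (grey). The KDM histone demethylases held 4 of the 10 genes with a promoter peak, and OGFOD had no peak.

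Promoter peaks made up 11 of the 38 peaks of the class (28.9%, with a 95% confidence interval of 17.0 to 44.8), beside 13.0% of all listed peaks. Both shares use the deposited distances, and the study counts more of the 8375 peaks within 3 kb of a TSS than these distances give. The interval treats peaks as independent, although KDM2A has 2 neighbouring promoter peaks. With peaks within 1 kb merged, the share of the class was 27.8%. Of the 11 promoter peaks, 2 covered the TSS itself, at EGLN3 and KDM2A, which is 5.26% of the class beside 0.967% of all peaks. Within 10 kb there were 16 peaks (42.1%, beside 30.8% of all peaks). Another 16 lay at 10 to 100 kb, 42.1% of the class and a smaller share than that of all peaks. Beyond 100 kb there were 6, which is 15.8% of the class beside 17.1% of all peaks. The promoter peak farthest from its TSS was that of P4HA2 at 2511 bp, and the nearest peak outside 3 kb was that of HIF1AN at 4798 bp. Positions are on the galGal6 assembly as deposited, counted from 1. Exons, introns and the DNA sequence under the peaks were not analysed here.

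Most peaks of the class rested on few fragments. The median pileup, the number of HIF1α fragments over the summit of a peak, was 10 (range 7 to 66), beside 9 over all peaks. Fold enrichment, the pileup plus 1 over the background plus 1, had a median of 4.13 (95% confidence interval 3.85 to 4.56), beside 3.92 over all peaks. The −log10 q, the deposited significance of each peak after adjustment, had a median of 2.38 (95% confidence interval 1.81 to 3.07), beside 2.28 over all peaks. The median fold enrichment and −log10 q of all peaks lay inside these intervals. A pileup of 9 or fewer fragments was found at 13 peaks (34.2%), beside 58.9% of all peaks. A −log10 q of at least 3 was reached by 15 peaks (39.5%), beside 26.5% of all peaks.

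The IgG signal was high at some of these genes. The background of a peak is the local IgG signal scaled to the depth of the HIF1α libraries, or the mean of the genome where that is larger, and its lowest value was 1.30 fragments. It exceeded 3 times that value at 8 of the 38 peaks (21.1%, 95% confidence interval 11.1 to 36.3), beside 7.94% of all peaks. The interval treats peaks as independent, which neighbouring peaks of 1 gene may not be. With peaks within 1 kb merged, the share of the class was 19.4%. These 8 peaks were in the promoters of EGLN3, KDM3A, KDM4B and KDM5B, at P3H2, and at 3 neighbouring sites of PLOD2. Among promoter peaks alone they were 4 of 11, beside 5.40% of all promoter peaks. The pooled IgG libraries were 2.83 times as deep as the pooled HIF1α libraries, and at 14 of the 38 peaks the background equalled a whole number of IgG fragments. At those 14 peaks the ratio of HIF1α to IgG fragments, adjusted for depth, ranged from 1.73 to 7.07. Its 95% interval lay above 1, which restates the peak call on the same fragments and adds no support to it. At the 17 peaks where the background had its lowest value, no more than 3 IgG fragments lay over the summit. What part the IgG signal plays in these peaks was not tested.

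**Figure D2:**
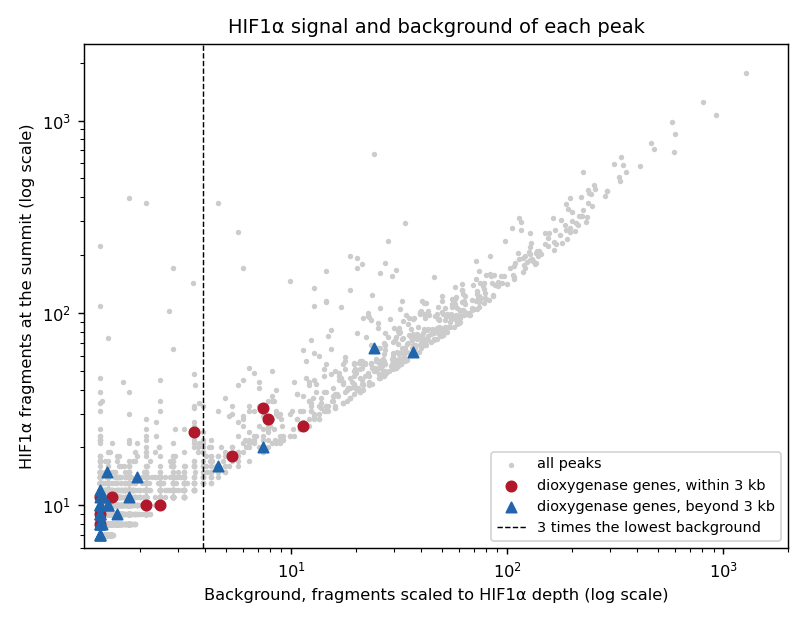
HIF1α fragments at the summit (y axis, log scale) against the background in fragments scaled to HIF1α depth (x axis, log scale) for the class within 3 kb of a TSS (red circles), the class beyond 3 kb (blue triangles) and all 8375 peaks (grey). Of the 38 peaks of the class, 8 lie to the right of the dashed line at 3 times the lowest background, with pileups of 16 to 66 fragments.

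Of the hydroxylases that act on HIF1α itself, EGLN3 had a peak over its TSS and HIF1AN had its nearest peak at 4798 bp. EGLN3 encodes the prolyl hydroxylase PHD3. Its TSS peak at chr5:35941737-35941886 had 32 HIF1α fragments (exact Poisson 95% interval 21.9 to 45.2) and 21 IgG fragments. Adjusted for depth the ratio was 4.31 (exact 95% interval 2.41 to 7.86), from the same fragments on which the peak was called. Its fold enrichment was 3.92 and its −log10 q 7.05, rank 42 of the 1092 promoter peaks of the list. By fold enrichment it ranked 5177 of all 8375 peaks. At 40074 and 66129 bp from the same TSS there were weaker peaks, with 7 and 11 HIF1α fragments and −log10 q values of 1.38 and 2.81. HIF1AN, the asparaginyl hydroxylase that limits HIF1α transcriptional activity, had peaks at chr6:18241489-18241626 (4798 bp from the TSS, 9 fragments, −log10 q of 2.38) and at chr6:18182174-18182317 (64107 bp, 7 fragments, −log10 q of 1.38). EGLN1, which encodes the main oxygen-sensing prolyl hydroxylase PHD2 of mammals, and P4HTM, a membrane-bound relative, had no listed peak.

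The KDM histone demethylases take their name from the removal of methyl groups from histone lysines, an activity not examined here for single members. A peak was found at 8 of the 13 genes, 11 peaks in all, beside 24.9% of all genes with a peak. At KDM3B and KDM5A, both among the 8, the only peak also carried the symbol of another gene. KDM2A, which in mammals acts on CpG island promoters, had the peak of the class with the highest −log10 q. It covered the TSS at chr5:127533-127778, with 24 HIF1α fragments (95% interval 15.4 to 35.7) and 10 IgG fragments. The depth-adjusted ratio was 6.79 (95% interval 3.13 to 15.9), with 5.51-fold enrichment and a −log10 q of 8.59, rank 24 of the 1092 promoter peaks. A second KDM2A peak at chr5:127196-127425 was separated from it by 107 bp and was weaker, with 10 HIF1α fragments, 7 IgG fragments and a −log10 q of 1.43. With 1 fragment fewer that peak would be below the weakest p-value of the list.

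KDM4B was nearest to 3 peaks on chromosome 28, all within 10 kb of a TSS. The peak at chr28:4929226-4929541, at 102 bp, had 28 HIF1α fragments (95% interval 18.6 to 40.5) over 22 IgG fragments. Its depth-adjusted ratio was 3.60 (95% interval 1.99 to 6.60), with a −log10 q of 4.35. Its fold enrichment of 3.30 ranked 7365 of all 8375 peaks. The flanking peaks had fewer HIF1α fragments but a background at its lowest value. They lay at chr28:4923437-4923579 (5545 bp, 11 fragments, fold enrichment 5.22, −log10 q of 3.88) and at chr28:4936951-4937129 (7013 bp, 12 fragments, fold enrichment 5.66, −log10 q of 4.76). The largest pileup at KDM4B was therefore in the promoter and the highest fold enrichment was outside it.

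KDM3A and KDM5B, demethylases of lysines 9 and 4 of histone H3, each had 1 peak, in the promoter and over a high IgG background. The KDM3A peak at chr4:85572822-85573256, at 491 bp from the TSS, had 26 HIF1α fragments (95% interval 17.0 to 38.1) and 32 IgG fragments. The ratio was 2.30 (95% interval 1.31 to 3.98) after adjustment for depth. Its −log10 q of 1.46, beside a lowest value of 1.30 in the list, ranked 904 of the 1092 promoter peaks. At KDM5B the peak at chr26:544418-544566, at 236 bp, had 18 HIF1α fragments (95% interval 10.7 to 28.4), 15 IgG fragments, a ratio of 3.39 (95% interval 1.61 to 7.23) and a −log10 q of 2.21. Intervals of the ratio at KDM2A, KDM3A, KDM4B and KDM5B overlapped, and the order of these ratios was not tested.

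The other KDM genes had a single peak each, beyond 3 kb. The KDM7A peak was at 9768 bp and the KDM8 peak at 68897 bp, both with 8 fragments and a −log10 q of 1.81. The KDM5A peak at 27422 bp had 10 fragments and a −log10 q of 3.07 and also carried the symbol SLC6A13. The KDM3B peak at 16188 bp had 7 fragments, the fewest in the list, and also carried the symbol REEP2, so neither can be assigned to the demethylase alone. KDM2B, KDM4A, KDM4C, KDM6A and PHF2 had no listed peak.

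**Figure D3:**
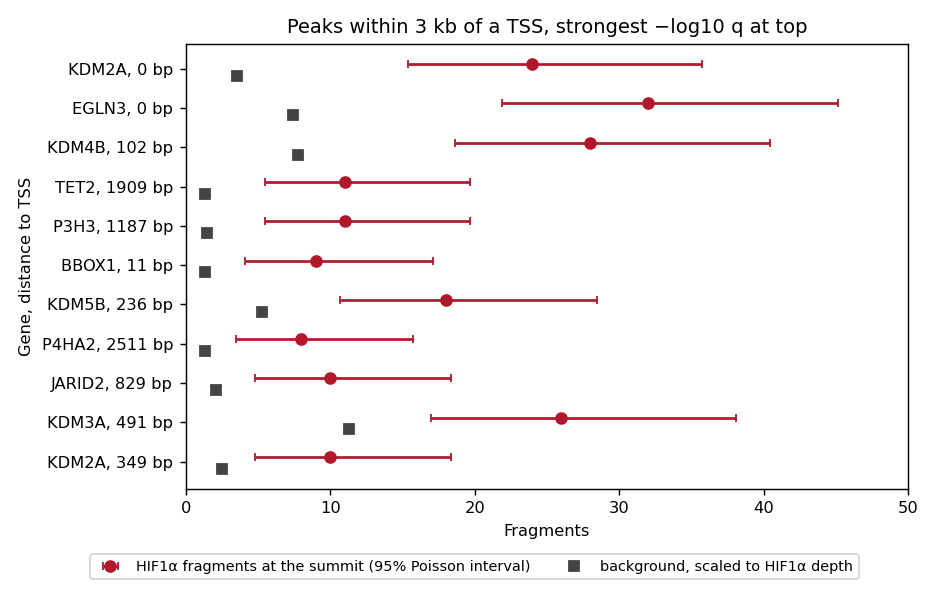
HIF1α fragments at the summit with exact Poisson 95% intervals (red circles) and the background scaled to HIF1α depth (dark squares) at the 11 peaks within 3 kb of a TSS, ordered by −log10 q, in which P4HA2 and JARID2 are tied. The background is 11.3 fragments at KDM3A and 1.30 at BBOX1 and TET2. Each interval lies above it, which restates the peak call on the same fragments and adds no support to it.

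Among the other JmjC proteins, the peak with the highest −log10 q was over 100 kb from its TSS. JARID2 is a partner of the Polycomb repressive complex that carries a JmjC domain without demethylase activity. It had a promoter peak at chr2:61064822-61064947, at 829 bp from the TSS, with 10 HIF1α fragments, 6 IgG fragments and a −log10 q of 1.81. The ratio there was 4.71 (95% interval 1.55 to 15.8). A peak at chr2:60903176-60903307, at 162469 bp, was stronger, with 15 fragments (95% interval 8.40 to 24.7), a −log10 q of 7.22 and the highest fold enrichment of the class (6.64). JMJD1C, a relative of KDM3A, had a peak at 10621 bp with 11 fragments, 5.13-fold enriched at a −log10 q of 3.80. The JMJD7 peak at 29584 bp had 9 fragments and shared its position with a gene known only by an identifier. HSPBAP1, JMJD4, JMJD6, JMJD8, RIOX1 and TYW5 had no listed peak.

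TET enzymes oxidize methylated cytosines in DNA, and TET2 was the member of that family with peaks. They lay at chr4:38870200-38870316 (1909 bp from the TSS, 11 fragments, fold enrichment 5.22, −log10 q of 3.88) and at chr4:38864601-38864709 (7516 bp, 10 fragments, fold enrichment 4.79, −log10 q of 3.07). Both had the lowest background. TET1 and TET3 had no listed peak. FTO, which demethylates adenosines in RNA, was nearest to 4 peaks on chromosome 11, at 40451, 120031, 129225 and 133452 bp from the TSS. The peaks at 120031 and 133452 bp had 10 HIF1α and 4 IgG fragments each, and those at 40451 and 129225 bp had 8 fragments over the lowest background. No FTO peak reached a −log10 q of 3. ALKBH1, ALKBH2, ALKBH3, ALKBH4, ALKBH5 and ALKBH8, which reverse alkylation or methylation of nucleic acids or proteins or act on tRNA, had no listed peak.

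The procollagen hydroxylases modify prolines and lysines of collagen chains in the endoplasmic reticulum. A peak was found at 4 of the 9 genes, 9 peaks in all, beside 24.9% of all genes with a peak. P3H3, a prolyl 3-hydroxylase family member, had a promoter peak at chr1:77901504-77901709, at 1187 bp from the TSS, with 11 fragments (95% interval 5.49 to 19.7), 4.83-fold enriched at a −log10 q of 3.38. P4HA2, a catalytic subunit of prolyl 4-hydroxylase, had one at chr13:17468447-17468717, at 2511 bp, with 8 fragments (95% interval 3.45 to 15.8), 3.90-fold enriched at a −log10 q of 1.81. The P3H2 peak at 13143 bp had 16 HIF1α and 13 IgG fragments and a −log10 q of 1.91. P3H1, P3H4, P4HA1, P4HA3 and PLOD1 had no listed peak.

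PLOD2, a lysyl hydroxylase of collagen telopeptides, was nearest to 6 peaks, the most of any gene of the class, and all were over 50 kb from its TSS. Peaks at chr9:11629416-11629570, chr9:11633097-11633387 and chr9:11633902-11634631 lay within 5216 bp of each other, and the last pair had the highest IgG signal of the class. In this order the peaks had 20, 66 and 63 HIF1α fragments and 21, 68 and 103 IgG fragments. The depth-adjusted ratios were 2.69, 2.74 and 1.73, with 95% intervals of 1.38 to 5.22, 1.93 to 3.91 and 1.24 to 2.39. The middle peak had a −log10 q of 7.96, the second highest of the class, but ranked 7898 of 8375 by fold enrichment. The remaining PLOD2 peaks had little background. At 53259 bp there were 14 fragments and a −log10 q of 4.58, and at 164481 and 199111 bp there were 9 and 10 fragments and −log10 q values of 2.38 and 3.07.

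ASPH, which hydroxylates aspartates and asparagines in EGF-like domains, had peaks at 40416 and 56961 bp, with 10 and 9 fragments and −log10 q values of 3.07 and 1.99. BBOX1 makes carnitine from butyrobetaine and was the small-molecule hydroxylase with a peak. It lay at chr5:3749104-3749252, 11 bp from the TSS, with 9 fragments (95% interval 4.12 to 17.1) over the lowest background, 4.35-fold enriched at a −log10 q of 2.38. PHYH, TMLHE and HGD had no listed peak. HGD is named with this class but does not use 2-oxoglutarate. A gene without a listed peak may still have bound HIF1α, since 7 fragments were the fewest that made a peak.

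The side of the gene start on which peaks lay is given as a description, with no share over other genes beside it. Where peaks shared their nearest transcript, the deposited distances fixed the position of its TSS, which was possible for 9 genes and 25 peaks. At PLOD2, FTO, ASPH, HIF1AN, JARID2 and TET2 every placed peak was on the side of lower coordinates, at KDM2A 1 peak was on that side and 1 over the TSS, and at EGLN3 both distal peaks were on the side of higher coordinates. At KDM4B the placed peaks were on both sides, and the third peak was assigned to another transcript. Gene strands were not used here, so upstream and downstream cannot be told apart. Among the 10 promoter genes, EGLN3, JARID2, KDM4B and TET2 also had a peak beyond 3 kb.

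**Figure D4:**
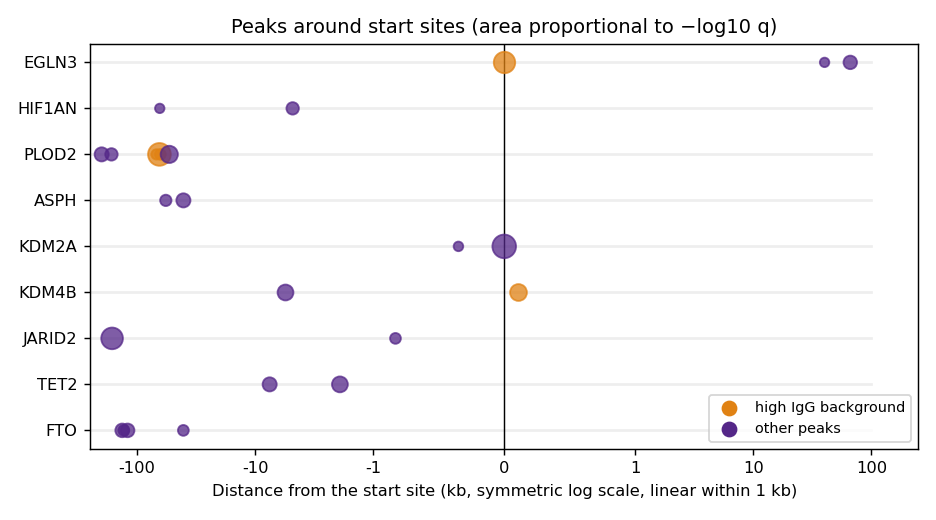
Distance of each peak from the start site in kb (x axis, symmetric log scale; negative is toward lower coordinates) for the 9 genes whose start site could be placed, with symbol area proportional to −log10 q. Orange marks peaks with high IgG background, of which PLOD2 has 3 and EGLN3 and KDM4B have 1 each, and all 6 PLOD2 peaks lie on 1 side, where the symbols of those 3 overlap.

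A total of 9 genes of the class are widely known to be induced by hypoxia in mammals (EGLN1, EGLN3, KDM3A, KDM4B, KDM4C, P4HA1, P4HA2, PLOD1 and PLOD2), a list made after the values were seen. The list is not complete, since other members have also been linked to HIF. A promoter peak was found at 4 of these 9 (44.4%, 95% confidence interval 18.9 to 73.3), and at 6 of the 44 other genes of the class (13.6%, 95% confidence interval 6.40 to 26.7). Over all genes the share was 5.33%. A peak at any distance was found at 5 of the 9 (55.6%, 95% confidence interval 26.7 to 81.1). Among the other 44 it was found at 16 (36.4%, 95% confidence interval 23.8 to 51.1), beside 24.9% of all genes. Both pairs of intervals overlapped and the differences were not tested. The 6 other genes with a promoter peak were KDM2A, KDM5B, JARID2, TET2, P3H3 and BBOX1. The study names KDM5B and JARID2 as already known to be HIF1α-regulated and as also found in its own binding and expression data. Elsewhere it counts JARID2 among its new HIF1α-dependent genes. Its expression data were not examined here. The shares therefore depend on how the list is drawn. Of the 4, EGLN3, KDM3A and KDM4B had a high IgG background at the promoter peak and P4HA2 did not. Without such peaks, P4HA2 alone of the 9 kept a promoter peak. Of the other 44, KDM2A, JARID2, TET2, P3H3 and BBOX1 kept one and KDM5B did not.

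Partner genes of the same pathways were examined from lists. Of 14 genes for the HIF subunits, their degradation machinery, coactivators and other regulators, 6 had a peak at any distance. This share was 42.9%, beside 39.6% of the dioxygenase class and 24.9% of all genes. A promoter peak was found at 1 of the 14, the regulator CITED2. HIF1A itself had a peak at chr5:54187693-54187866, at 4232 bp from the TSS, with 11 fragments and a −log10 q of 3.57. Of 17 genes that make or use 2-oxoglutarate, succinate or fumarate, 4 had a peak (23.5%) and 1 had a promoter peak. That was GOT2, the mitochondrial aspartate aminotransferase, at 309 bp with 14 fragments and a −log10 q of 5.57, although the peak also carried the symbol SLC38A7. Of 14 partners and other enzymes of demethylation and collagen modification, 2 had a peak (14.3%), RCOR1 and EZH2, and none had a promoter peak. The shares with a promoter peak were 7.14%, 5.88% and 0% of the genes in these lists, beside 18.9% of the dioxygenase class and 5.33% of all genes, and were not tested against each other.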

How the data were processed

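Per the study's methods, the authors trimmed reads with Trimmomatic, aligned them with Bowtie2 to galGal6 (Ensembl 96), kept fragments under 120 bp, and called narrow peaks with MACS2 at a q-value of 0.05 on pooled HIF1α against pooled IgG libraries. Software versions are not given in the sources used here. The authors deposited the pileup as a signal in whole fragments, the fold enrichment as a ratio, and −log10 p-values and q-values. The number of per-sample columns left without a sample was 0. Recomputing the Poisson p-value from pileup and background gave the deposited −log10 p within 0.00165 at 8369 peaks, so the pileup is unscaled.

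The background was computed from fold enrichment and pileup. In units of the background, 1 IgG fragment was worth 0.354, and a background within 0.005 IgG fragments of a whole number was read as that number over the summit. The summit is where the HIF1α pileup is highest, so ratios describe a chosen point. Depths of single libraries are unknown. Poisson intervals, ratio intervals (Clopper-Pearson, conditional on the sum) and Wilson intervals are at 95% and cover counting error only. Intervals over peaks treat the peaks as independent, although some are neighbours at 1 gene. The interval and step computations were tested on simulated data.

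Genes were matched by symbol to the NCBI RefSeq table of GRCg7b, used for names only. The text names every promoter peak, the 5 peaks highest by −log10 q and by fold enrichment, and genes with 3 or more peaks, with the rest in brief, chosen after their values were seen. Members and lists were chosen with earlier results of these data known, so no test was made over them. Groups and replicate numbers came from sample titles. Alternatives were −log10 q and fold thresholds, exclusion of high IgG background, merging within 1 kb, promoter distance, symbols per peak, membership and 1 fragment fewer per peak. Python 3.11.15, pandas 2.3.3 and SciPy 1.17.1 were used.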

Additional observations from a re-analysis of the deposited data

How the results depend on the processing

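Of 62 recomputed values, 53 stayed within 1.5 times the reported count or inside the interval of the reported share or median, and 9 moved. With −log10 q held to 2 or more, 23 peaks remained and their median fold enrichment was 4.79. With 3 or more there were 15 peaks at 10 genes, of which 5 had a promoter peak, with a median fold enrichment of 4.83 and a median −log10 q of 3.88. The thresholds themselves produce these changes. Without high IgG background 6 genes kept a promoter peak, those lost being EGLN3, KDM3A, KDM4B and KDM5B, and the share of peaks with high background was 0% by construction. With the promoter distance set to 1 kb or 10 kb, 7 or 12 genes had a promoter peak. The share over all genes at these distances was not computed. By peaks, 28.9% of the class lay within 3 kb, beside 13.0% of all peaks. Within 10 kb lay 42.1% of the class, beside 30.8% of all peaks. With 1 HIF1α fragment fewer per peak, an alternative chosen after seeing the data, 34 of the 38 peaks stayed above the weakest p-value of the list. The 4 lost were at EGLN3 (distal), HIF1AN (distal), KDM2A (349 bp) and KDM3B. Over the whole list, 1616 of the 8375 peaks were lost in the same way. Fold enrichment of at least 3, peaks of 1 symbol, exclusion of HGD, JARID2 and P3H4, and merging gave 34, 35, 36 and 36 peaks. With peaks of 1 symbol, 18 genes of the class had a peak.

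No paired analysis was possible because the peak list used here was called after pooling and none of its values belongs to a single replicate, and for the same reason no replicate was left out. Of the 38 peaks, 13 rested on 9 or fewer fragments, which limits the precision of each.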
